A study of Homo sapiens with 17 samples.

Results

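The nuclear-encoded genes of the mitochondrial respiratory chain were followed in Ishikawa cells, a human endometrial adenocarcinoma line with epithelial character, after 24 h with progesterone (P4), with its vehicles or with medium alone. Members were the protein-coding genes whose symbols begin with the usual stems of the subunits (NDUFA, NDUFB, NDUFC, NDUFS, NDUFV, UQCR, COX4I, COX5, COX6, COX7, COX8 and ATP5, with CYC1 and SDHA to SDHD). This gave 100 of the 60662 genes in the count table, of which 38 belong to complex I, 8 are complex I assembly factors (the NDUFAF genes), 4 belong to complex II, 10 to complex III, 19 to complex IV and 21 to complex V. NDUFA4 and NDUFA4L2 were placed with complex IV, where the NDUFA4 protein is found. The stems also took in genes that are not subunits. Among them are the assembly factors, the ATP synthase inhibitor ATP5IF1, the coupling factor gene ATP5S and 2 read-through genes. COX7A2L, a factor of supercomplexes, was counted with complex IV by its stem, and NDUFA4L2 is a relative of the subunit NDUFA4.

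Cellular respiration passes electrons from NADH through complex I, and from succinate through complex II, to coenzyme Q. Complex III hands them on to cytochrome c and complex IV to oxygen, and the proton gradient that complexes I, III and IV build drives the ATP synthase, complex V. A small set of subunits is encoded in the mitochondrial genome, and all others, the members described here, are transcribed in the nucleus and imported. In the endometrium the pathway supplies ATP to an epithelium that is remodelled under P4 in each cycle.

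RNA was sequenced from 3 control cultures in basal medium, 3 cultures with the ethanol vehicle (vehicle control, EtOH), 2 cultures with Nap, a vehicle that the labels do not spell out, and 3 cultures with P4. The titles of the ethanol cultures name both Nap and EtOH, their treatment label names 70% ethanol, and the treatment label of the P4 cultures names Nap with P4. The treatment protocol in the labels lists P4 at 0.1 and 1.0 mg/ml without tying a dose to a culture, while the study's text names a single dose, given in µg/ml and not carried by the labels, for the sequenced cultures. A further 6 libraries with recombinant PSAT1 carry labels that disagree with their column names and entered no comparison. All cultures are of 1 cell line in charcoal-stripped serum, and the labels call them biological replicates without saying how they were separated, so p-values measure the spread between these cultures.

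Libraries held between 4999521 counts (an ethanol culture) and 19704493 counts (a control culture), and the 3 counts taken as the limit of detection correspond to between 0.156 and 0.575 CPM (counts scaled to a common library total) in the 11 grouped libraries. Epithelial markers were present in every grouped culture, with EPCAM at 172 to 216 CPM, whereas the immune markers PTPRC, CD3E, CD68 and LYZ reached at most 0.966, 0.0805, 1.03 and 0.403 CPM, the endothelial markers PECAM1, VWF and CDH5 at most 0.0763, 1.49 and 0 CPM, and the stromal markers DCN, LUM and PDGFRB at most 0.157, 1.4 and 0.323 CPM. The summed CPM of 6 genes listed as stromal markers, nearly all of it from collagen genes, was 418 to 621 in control cultures, 418 to 611 with Nap, 343 to 358 with ethanol and 127 to 179 with P4. That of 6 epithelial markers was 1220 to 1450, 1150 to 1310, 1250 to 1260 and 966 to 1110. Their part in the differences described here was not tested, and in bulk RNA fewer cells of a type and less RNA per cell cannot be told apart.

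Summed respiratory chain transcripts were lower in the ethanol cultures than in control cultures in every complex, and lower again in P4 cultures for complexes I and V. Over the tested genes of complex V the summed CPM was 76.6% ± 1.47 (SD, n = 3) of the control mean with ethanol and 68.2% ± 4.36 (SD, n = 3) with P4, against 98.2% ± 5.44 (SD, n = 2) with Nap. Complex I stood at 83.6% ± 1.2 with ethanol and 79.2% ± 2.3 with P4 (SD, n = 3). Complex III stood at 79.1% ± 0.153 and 77.3% ± 3.42 and complex IV at 77.6% ± 2.66 and 78.9% ± 7.08, so that for these complexes the difference between ethanol and P4 was within the spread of the P4 cultures. Complex II was at 90.2% ± 2.37 with ethanol and 85.7% ± 3.48 with P4. The complex I assembly factors were lower with ethanol, at 85.2% ± 0.961, than with P4, at 91.7% ± 0.643.

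**Figure D1:**
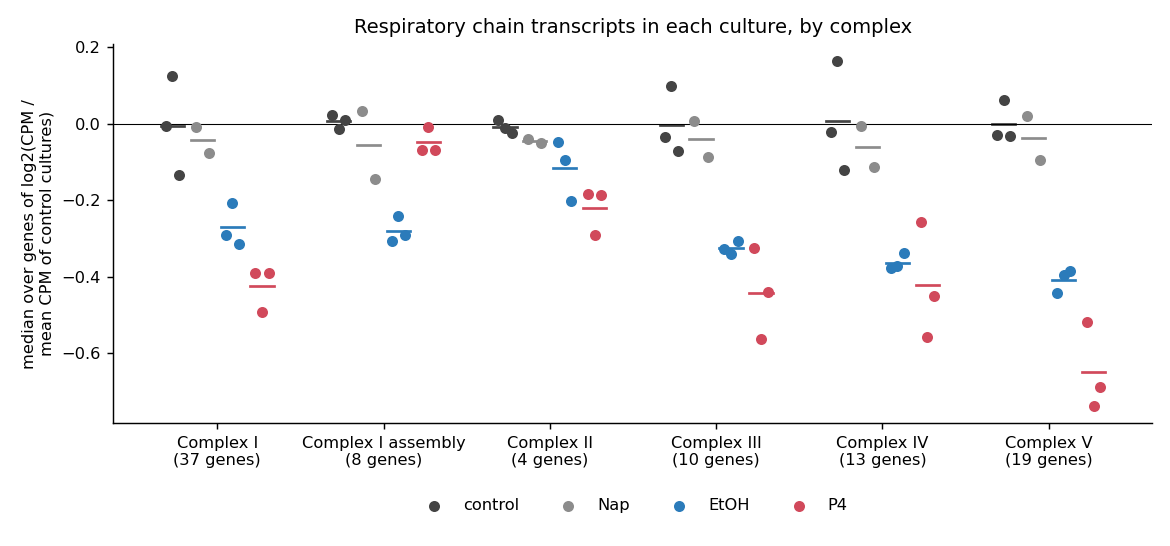
Median over genes of the log2 ratio of CPM to the mean CPM of the control cultures, for each culture (points) and each complex, with the mean of the cultures of a group as a bar. For complex V the ethanol cultures sit between -0.44 and -0.39 and the P4 cultures between -0.74 and -0.52, all below the control cultures, and for the assembly factors the P4 cultures sit between -0.07 and -0.01.

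Ethanol against control asks what the vehicle alone does. Of 92 members tested, 58 were called lower and 0 higher (edgeR's quasi-likelihood test, with p-values adjusted by Benjamini-Hochberg over all genes tested and called below 0.05), or 63% of the members. Over all 16673 genes tested in that comparison, 22.6% were called, 10.7% lower and 11.9% higher. No member passed in the higher direction, 0 members were called higher by DESeq2, and the members' median log2 fold change was -0.32 against -0.009 over all genes. By complex, 16 of 20 tested genes of complex V, 11 of 13 of complex IV, 7 of 10 of complex III, 18 of 37 of complex I, 2 of 4 of complex II and 4 of 8 assembly factors were lower. The changes were small, between -0.59 and 0.49 over all members, and none was beyond 1 on the log2 scale. The count fell to 38 when the third ethanol culture was left out, and it was 52 of 92, with 0 higher, when the Nap cultures served as the reference in place of control (background 11.2% lower).

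Nap cultures showed no called member against control. The test called 0 of 91 members and 0 of 17166 genes, with 0 members and 217 genes at an unadjusted p under 0.05, while DESeq2 called 0 members and 1 gene. The members' median log2 fold change was -0.05, with single genes between -0.5 and 0.23.

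P4 against the ethanol vehicle, the study's own contrast, divided the members. Of 91 tested, 38 were called lower and 9 higher, and 44 did not pass the test. Over all 16540 genes tested, 53.0% were called, 26.5% lower and 26.6% higher, so the share of members called, 51.6%, was close to the background while the split was not, at 41.8% lower and 9.89% higher. The members' median log2 fold change was -0.19 against -0.013 over all genes. P4 and ethanol cultures did not overlap for 56 members, 39 of them lower with P4 and 17 higher, and such separation was found for 60.3% of all genes tested. The count of lower members rested in part on single cultures, being 23 without the third P4 culture and 24 without the second ethanol culture. It was 31, with 12 higher, after offsets for gene length and GC content, and the median of complex I then moved from -0.25 to -0.08.

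By complex, the genes called lower and higher with P4 were 11 and 0 of 19 in complex V, 16 and 3 of 37 in complex I, 4 and 1 of 10 in complex III, 3 and 2 of 13 in complex IV, 2 and 1 of 4 in complex II and 2 and 2 of 8 among the assembly factors. Median log2 fold changes were -0.26 in complex V, -0.25 in complex I, -0.11 in complexes II, III and IV, and 0.08 in the assembly factors. Without the second P4 culture the medians of complexes III and IV were -0.04.

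**Figure D2:**
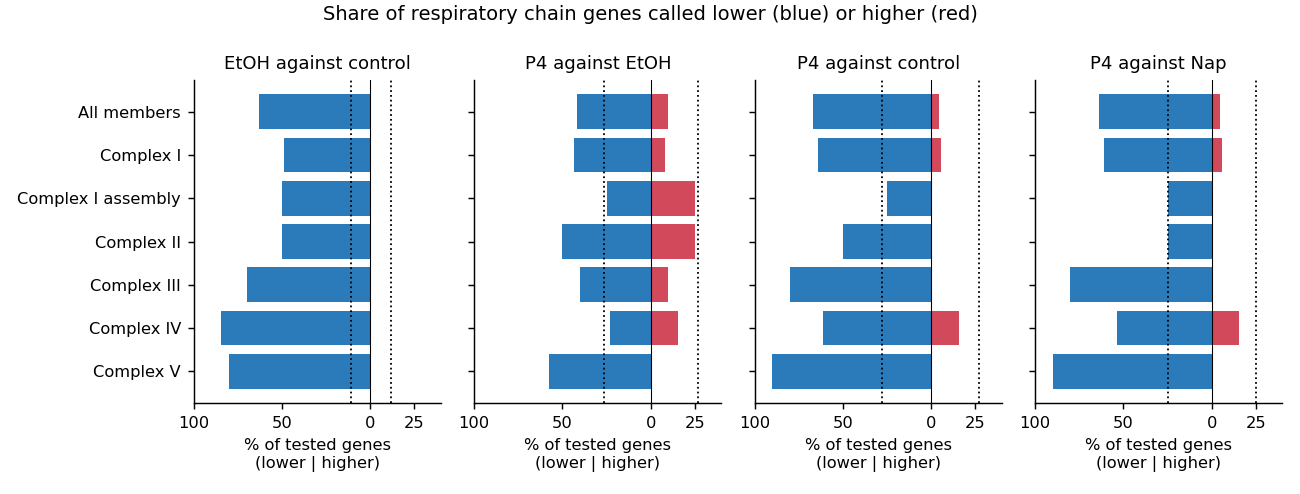
Percent of tested genes called lower (blue, to the left) or higher (red, to the right) in each complex, for 4 comparisons, with the percent over all genes tested in each direction as dotted lines. In complex V no gene is called higher in any panel, and 80% are called lower for EtOH against control and 90% for P4 against control.

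Against the other references the members lay further down. Against control, 61 of 91 members were lower and 4 higher with P4, where 54.8% of all genes were called, 28.0% lower and 26.8% higher. Against Nap, 58 of 91 were lower and 4 higher, where 49.7% of all genes were called, 24.9% lower and 24.8% higher. The medians were -0.47 and -0.46. In both comparisons 18 of 20 tested genes of complex V were lower and 0 higher. All of these comparisons share the P4 cultures, and those of ethanol share cultures with them too, so they are given side by side and not as separate evidence.

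Promoter sequences of the members were searched for known motifs, and each motif except the SP1 box was in a minority of the members. RefSeq promoters (GRCh38.p14, from 250 bases before to 50 bases after the start of transcription) were matched for 76 of the 100 members and searched on both strands. For each member 1 promoter was used, and the background is all RefSeq promoters, whether or not their genes are expressed here. The motif of NRF1, a factor named for its part in respiratory gene transcription (nuclear respiratory factor), was in 17 of the 76, or 22.4%, against 5.78% of 35116 promoters. The ETS motif read by GABPA (CCGGAAG) was in 20, or 26.3%, against 10.3%. The YY1 motif (AAGATGGCG) was in 8, or 10.5%, against 1.75%, the CRE (TGACGTCA) in 5, or 6.58%, against 1.85%, and the GC box of SP1 (GGGCGG) in 43, or 56.6%, against 45.0%. An E-box (CACGTG) was in 8, or 10.5%, against 7.26%. The ERR motif (TCAAGGTCA) and a C/EBP-ATF composite (TGATGNAAN) were in 1 promoter each, against 0.353% and 3.61%. Matches of different motifs overlapped in 2 members, an ETS with an SP1 match in one and a CRE with an E-box in another. A match is a description of letters and not of binding.

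The YY1 letters were in 4 of the 8 matched promoters of members called higher with P4 against ethanol and in 1 of the 29 called lower. They were also in 3 members that were not called, NDUFA6, NDUFA7 and UQCRC1. The windows of the 5 called members that carry them are shown. In the first 4, all called higher, the match begins 11 (NDUFA9), 22 (NDUFS4), 18 (NDUFS7) and 11 (SDHB) bases into the transcript, and in ATP5PF, called lower, 57 bases before its start. Each window is 30 bases on the gene's own strand with the motif in capitals. They lie at chr12:4649114-4649143 (plus strand), chr5:53560650-53560679 (plus), chr19:1383914-1383943 (plus), chr1:17054003-17054032 (minus) and chr21:25735092-25735121 (minus), at or near the first exon of each gene.
NDUFA9: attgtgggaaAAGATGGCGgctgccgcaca
NDUFS4: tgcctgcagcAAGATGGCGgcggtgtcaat
NDUFS7: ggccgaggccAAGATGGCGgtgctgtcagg
SDHB: gtcaggagccAAGATGGCGgcggtggtcgc
ATP5PF: aggcgaagaaAAGATGGCGgaggctgtgcc

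The NRF1 letters were in 6 of the 29 matched promoters of members called lower and in 1 of the 8 called higher. In all 6 the first match begins upstream of the start, from 8 bases (UQCR10) to 219 bases (ATP5ME) before it. The match of UQCR10 runs across the start. UQCR11, NDUFB4, SDHA and ATP5ME hold further matches, whose positions are not given here. The 6 are shown with the first match in capitals because they show the palindromic motif with its inner bases varying and in both orientations. The windows lie at chr22:29767351-29767380 (plus, UQCR10), chr19:1605472-1605501 (minus, UQCR11), chr3:120596167-120596196 (plus, NDUFB4), chr19:5903869-5903898 (minus, NDUFA11), chr5:218144-218173 (plus, SDHA) and chr4:674476-674505 (minus, ATP5ME).
UQCR10: gtcggccccaGCGCAGGCGCggtggcgcga
UQCR11: ccctccccgcGCGCGTGCGCgccgcggccg
NDUFB4: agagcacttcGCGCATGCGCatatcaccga
NDUFA11: ccggtccccgGCGCGTGCGCgcgatccatg
SDHA: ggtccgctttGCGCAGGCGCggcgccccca
ATP5ME: cgcagcaactGCGCAGGCGCagccgatgat

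A CRE was in 3 of the 29 promoters of members called lower and 1 of the 8 called higher. The 3 are shown because ATP5MC1, the member with the steepest fall, carries this motif and an E-box but no NRF1, ETS, YY1 or SP1 match. The matches begin 57 (ATP5MC1), 53 (NDUFB2) and 158 (ATP5ME) bases before the start, in windows at chr17:48892719-48892748 (plus), chr7:140696644-140696673 (plus) and chr4:674416-674445 (minus).
ATP5MC1: tggggaatcgaTGACGTCAaccaatgggga
NDUFB2: gagcgactctgTGACGTCAcgggaggcgcg
ATP5ME: tgcgcctcacgTGACGTCAccgccgcgcgg

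Within complex I the catalytic core and the other subunits were counted apart. The 7 nuclear core subunits, which carry the flavin, the iron-sulfur clusters and the coenzyme Q site, had a median log2 fold change of 0.05 with P4 against ethanol, 1 being called higher and 1 lower. The other 30 tested subunits, which surround the core, had a median of -0.29 with 2 higher and 15 lower. In ethanol against control 1 of the 7 core subunits and 17 of the 30 others were lower, with medians of -0.09 and -0.28. No test of the difference between these sets was made.

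NDUFS7, a core subunit that holds an iron-sulfur cluster next to the coenzyme Q site, was at 15.1, 13.7 and 13.9 CPM in the P4 cultures and at 10.9, 10.6 and 11.5 CPM in the ethanol cultures. All P4 cultures were above all ethanol cultures, and NDUFS7 rose by 0.35 ± 0.12 (SE) on the log2 scale (adjusted p = 0.022). The call was lost with DESeq2, with upper-quartile normalization and without the second ethanol culture (adjusted p from 0.0099 to 0.1 over 16 alternatives). NDUFS1, the largest core subunit and the most abundant in CPM, was at 203, 190 and 202 CPM with P4 and 188, 192 and 196 CPM with ethanol. Its cultures overlapped, with a log2 fold change of 0.03 ± 0.061. NDUFS3, NDUFS8, NDUFV1 and NDUFV2, also of the core, had log2 fold changes of 0.07, 0.04, 0.17 and 0.05, none past the test. NDUFV1 gained a call under 3 of the 16 alternatives. For NDUFV2, 28.4% of the exon bases are shared with another annotated gene on the same strand, so part of its reads may not have been assigned.

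Among the other subunits of complex I, NDUFS4 was the member that rose most. This subunit, needed for the last steps of assembly and for electron transfer, was at 32.4, 31.1 and 32.1 CPM with P4, at 24.9, 20.2 and 19.1 CPM with ethanol, at 25 and 23.2 CPM with Nap and at 23.2, 28.4 and 23.7 CPM in control cultures. All 3 P4 cultures were above the other 8. NDUFS4 rose by 0.59 ± 0.1 on the log2 scale against ethanol (adjusted p = 0.00047), by 0.38 against Nap (adjusted p = 0.012) and by 0.32 against control (adjusted p = 0.019). NDUFA9, which binds near the coenzyme Q site, rose by 0.35 against ethanol (adjusted p = 0.011), while its difference from control was 0.1 (adjusted p = 0.48). The opposite end was held by small accessory subunits. NDUFA2 was at 13.3, 9.03 and 11.6 CPM with P4, at 18.8, 20.5 and 19.5 CPM with ethanol and at 24.5, 27.5 and 22.4 CPM in control cultures, 3 sets that did not overlap. It fell by 0.82 ± 0.14 against ethanol (adjusted p = 0.00031). NDUFB3, in the membrane arm, was at 16.6, 11.5 and 13.1 CPM with P4 against 22.2, 22.4 and 24.1 CPM with ethanol, and at 29.9, 36.5 and 31.5 CPM in control cultures. It fell by 0.77 ± 0.13 against ethanol (adjusted p = 0.00037) and by 1.28 against control (adjusted p = 4.2e-07). The 13 further accessory subunits called lower with P4 against ethanol fell by between 0.25 (NDUFB10, NDUFC1) and 0.65 (NDUFS5) on the log2 scale. NDUFA7 was near the limit of detection, with a mean of 1.009 CPM with ethanol and 0.7359 CPM with P4, and 32.3% of its exon bases are shared with a same-strand gene.

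The assembly factors parted evenly, with 2 of 8 called lower and 2 of 8 higher with P4 against ethanol. These shares, 25% each, are near those over all genes tested (26.5% lower and 26.6% higher). NDUFAF2, a chaperone of late complex I assembly, was at 13.4, 15.7 and 15.7 CPM with P4 against 10.3, 11 and 9.26 CPM with ethanol, with no overlap, and at 14.3, 14.8 and 13.5 CPM in control cultures. It rose by 0.54 ± 0.13 on the log2 scale against ethanol (adjusted p = 0.0033), its log2 fold change with ethanol against control being -0.48 (adjusted p = 0.0084), and P4 and control overlapped (log2 fold change 0.05). NDUFAF4, which acts in the early assembly of the matrix arm, showed the same order, at 28.6, 28.2 and 28.1 CPM with P4, 20.5, 20.7 and 21.4 CPM with ethanol and 27.9, 22.6 and 30.4 CPM in control cultures. It rose by 0.42 ± 0.088 against ethanol (adjusted p = 0.0016). NDUFAF1 and NDUFAF8 fell by 0.48 and 0.38 against ethanol (adjusted p = 0.021 and 0.024), calls that were lost with DESeq2, with the offsets for length and GC content and without single cultures. The other 4 factors had log2 fold changes between -0.08 and 0.15.

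Complex II, succinate dehydrogenase, is the only complex with every subunit encoded in the nucleus, and its 4 genes moved apart. SDHC, a membrane anchor, was at 46.8, 33.6 and 41.2 CPM with P4, at 57.3, 61.8 and 58.1 CPM with ethanol and at 57.7, 56.6 and 56.5 CPM in control cultures. P4 cultures were below all others, and SDHC fell by 0.56 ± 0.11 on the log2 scale against ethanol (adjusted p = 0.00084) and by 0.51 against control (adjusted p = 0.00082), while ethanol differed from control by 0.06 (adjusted p = 0.62). SDHB, the iron-sulfur subunit, was at 57.9, 64.7 and 59.8 CPM with P4, at 49.5, 50.9 and 47.4 CPM with ethanol and at 63.4, 60.6 and 59.8 CPM in control cultures. P4 cultures were above all ethanol cultures and overlapped with control cultures, with a rise of 0.29 against ethanol (adjusted p = 0.0067) and a log2 fold change of -0.03 against control. SDHA, the flavoprotein, fell by 0.31 against ethanol (adjusted p = 0.037), a call lost with DESeq2, with no filter and without each of 4 single cultures. Pseudogenes named after SDHA, SDHC and SDHD are annotated (3, 4 and 3), and only uniquely aligned reads were counted. SDHD, the other anchor, had a log2 fold change of 0.09 (adjusted p = 0.52).

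**Figure D3:**
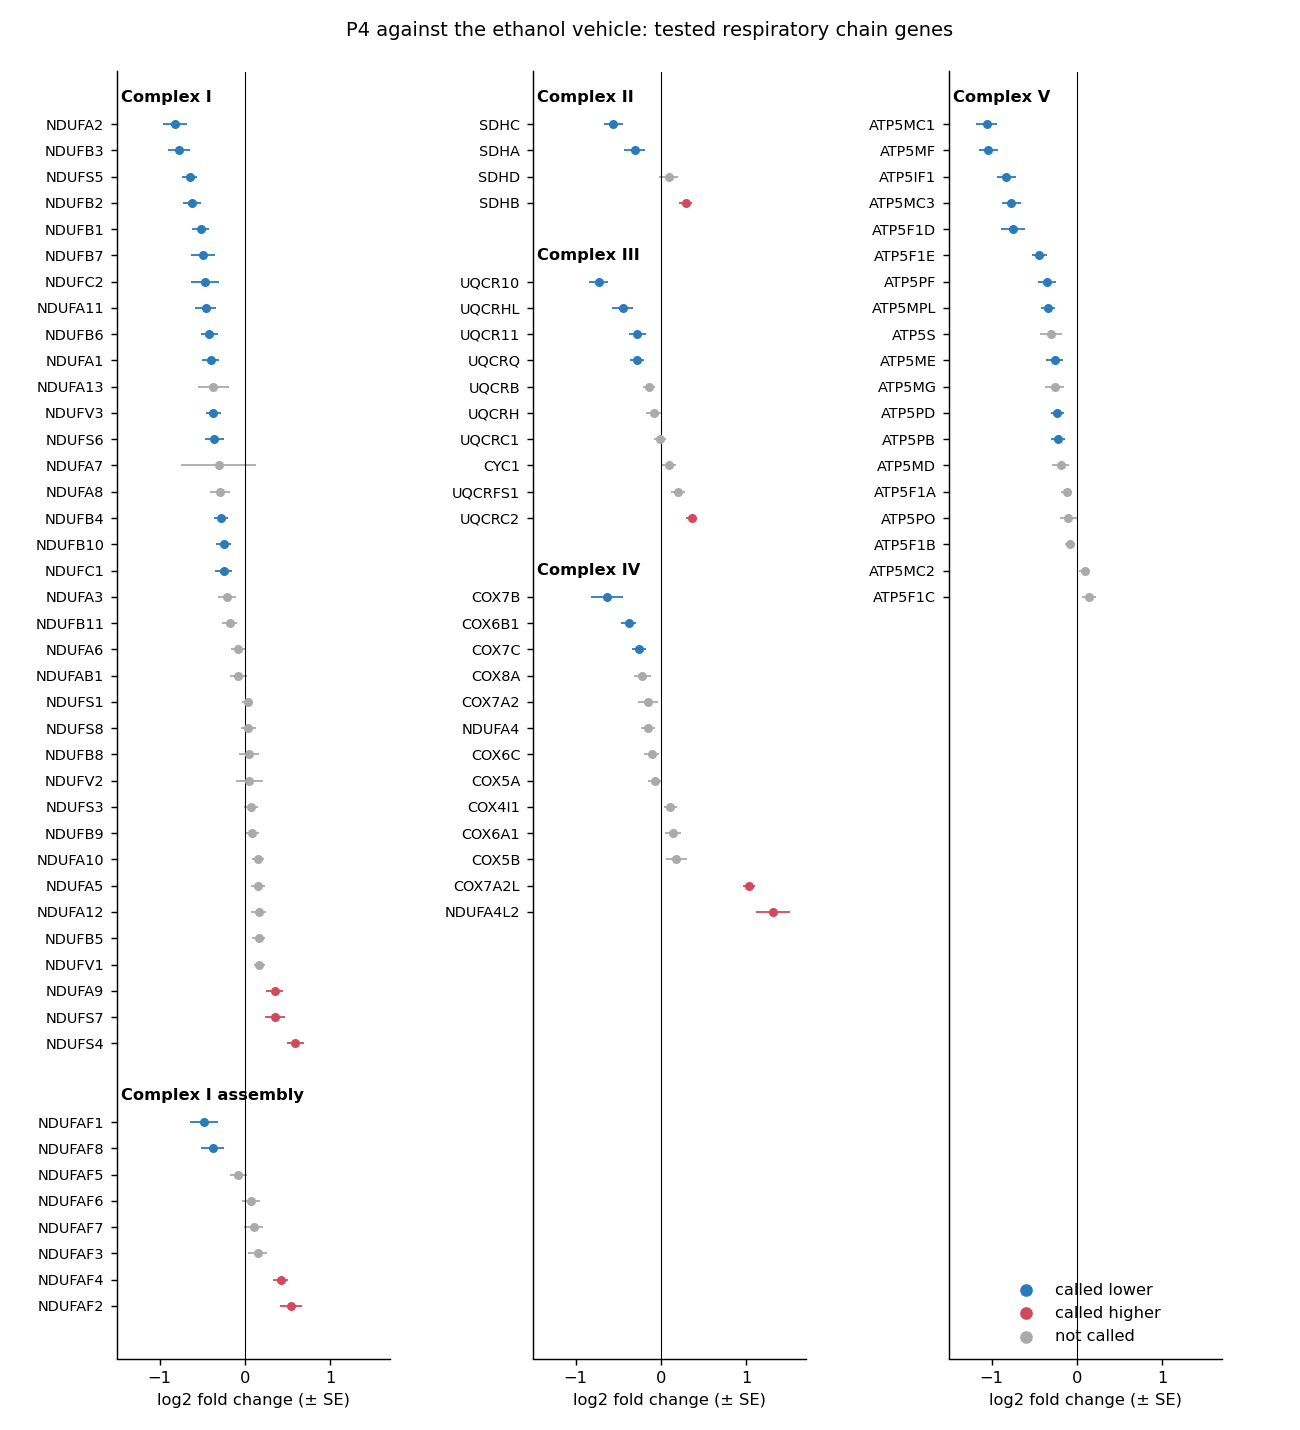
Log2 fold change of P4 against ethanol with its SE (bars) for 90 of the 91 tested members, sorted within each complex and coloured by the call. The 9 genes called higher include COX7A2L and NDUFA4L2 in complex IV, and the 38 called lower include ATP5MC1 and ATP5MF in complex V, both beyond -1.

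In complex III the genes that fell encode small subunits, and the one that rose encodes a core protein. UQCR10, a small subunit of the membrane part, was at 29.6, 22.8 and 27.2 CPM with P4, at 49.3, 41.4 and 41.8 CPM with ethanol and at 57.1, 59.7 and 42 CPM in control cultures. P4 cultures were below all others, and UQCR10 fell by 0.73 ± 0.11 on the log2 scale against ethanol (adjusted p = 0.00014) and by 1.02 against control (adjusted p = 5.8e-06). UQCRC2, one of the core proteins on the matrix side, was at 120, 110 and 119 CPM with P4, at 87.4, 90.3 and 90.8 CPM with ethanol and at 109, 108 and 115 CPM in control cultures. It rose by 0.36 ± 0.067 against ethanol (adjusted p = 0.00062) and its cultures overlapped with those of control (log2 fold change 0.05, adjusted p = 0.64). The catalytic subunits UQCRFS1 (the Rieske iron-sulfur protein) and CYC1 (cytochrome c1), and the core protein UQCRC1, had log2 fold changes of 0.2, 0.09 and -0.01 and did not pass, UQCRFS1 with an adjusted p of 0.053. UQCRFS1 gained a call under 3 of 16 alternatives and CYC1 under 1. UQCRHL fell by 0.45 against ethanol (adjusted p = 0.0057) and its near-identical parent UQCRH had a log2 fold change of -0.08 (adjusted p = 0.48), values that are uncertain for both because reads shared by the pair were not assigned. UQCR11 and UQCRQ fell by 0.28 each.

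Complex IV held the 2 largest rises, those of COX7A2L and NDUFA4L2, the only genes counted with it that were called higher against ethanol. COX7A2L, also known as SCAF1 or COX7RP, ties complexes III and IV together in supercomplexes and lies at chr2:42333546-42425088 on the minus strand (GRCh38). It was at 140, 146 and 138 CPM with P4, at 64.6, 68.7 and 71.1 CPM with ethanol, at 86.5 and 85.6 CPM with Nap and at 84.2, 94.9 and 86.1 CPM in control cultures. Every P4 culture was well above all others, and the ethanol cultures were below control and Nap. COX7A2L rose 2.05-fold against ethanol (log2 fold change 1.03 ± 0.068, adjusted p = 1.9e-07), 1.61-fold against Nap (adjusted p = 5.6e-05) and 1.57-fold against control (adjusted p = 9.4e-06). Its relative COX7A2, the isoform of complex IV itself, was at 68.1, 46.8 and 51.1 CPM with P4 and 61.9, 59.7 and 61.2 CPM with ethanol, overlapping, with a log2 fold change of -0.15 (adjusted p = 0.3). COX7A2 gained a call under 1 of 16 alternatives. COX7A1, the isoform of heart and skeletal muscle, had at most 1 count in any library.

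NDUFA4L2, a relative of NDUFA4 known as a target of hypoxia-inducible factor, lies at chr12:57234903-57240715 on the minus strand. It was at 5.2, 5.85 and 6.57 CPM with P4, at 2.68, 2.44 and 2.09 CPM with ethanol, at 2.36 and 3.29 CPM with Nap and at 2.1, 5.41 and 2.68 CPM in control cultures. P4 cultures were above all ethanol and Nap cultures, but 1 control culture reached 5.41 CPM and overlapped with them. NDUFA4L2 rose by 1.31 ± 0.2 on the log2 scale against ethanol (adjusted p = 0.00015) and by 0.75 ± 0.28 against control (adjusted p = 0.032). NDUFA4 itself was at 71, 58.5 and 65.2 CPM with P4 and 69.8, 71.5 and 72.4 CPM with ethanol, with overlap and a log2 fold change of -0.15 (adjusted p = 0.14). It gained a call under 4 of 16 alternatives. Against control NDUFA4 was lower both with P4 (log2 fold change -0.57, adjusted p = 8.3e-05) and with ethanol (-0.41, adjusted p = 0.00041).

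Of the other tested genes of complex IV, 3 fell with P4 against ethanol and 8 did not pass the test. COX7B was at 76.1, 41.6 and 51.4 CPM with P4 and 79.6, 87.5 and 89.9 CPM with ethanol, so that the groups were separate but the first P4 culture stood close to the ethanol cultures. COX7B fell by 0.63 ± 0.19 (adjusted p = 0.02), a call lost without the third ethanol culture. COX6B1, which clamps the dimer, fell by 0.38 (adjusted p = 0.0037), a call lost with the offsets for length and GC content, and COX7C fell by 0.26 (adjusted p = 0.018). COX4I1, COX5A, COX5B and COX6A1, around the catalytic core that mitochondrial DNA encodes, had log2 fold changes of 0.11, -0.07, 0.18 and 0.14, and COX8A had -0.22 (adjusted p = 0.077). COX5B and COX8A gained a call under 2 of 16 alternatives each, and COX6A1 under 1. With ethanol against control COX4I1 fell by 0.24, COX5A by 0.26, COX5B by 0.4 and COX6A1 by 0.34 on the log2 scale (adjusted p = 0.036, 0.024, 0.016 and 0.01). The tissue isoforms COX4I2, COX6A2, COX6B2, COX7A1, COX7B2 and COX8C were not tested, with at most 2, 0, 3, 1, 1 and 4 counts in any library, which puts COX4I2, COX6A2, COX7A1 and COX7B2 below the limit of detection in every library, COX6B2 at it in 2 (a Nap and a P4 culture) and COX8C above it in 1, the P4 culture with 0.385 CPM.

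**Figure D4:**
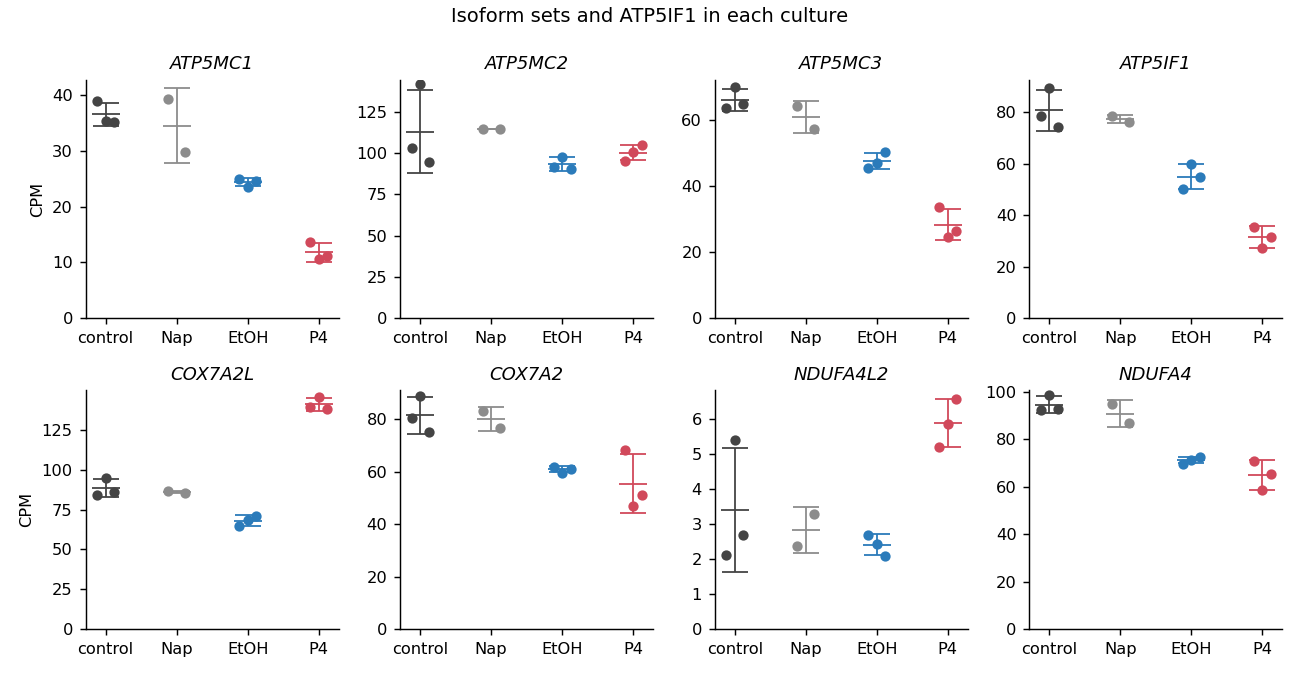
CPM in each culture (points) with the mean and SD of the group (bars, n = 3, and n = 2 for Nap) for isoform sets and ATP5IF1, each on its own axis from 0. ATP5MC1 and ATP5MC3 step down from control to EtOH to P4 while ATP5MC2 overlaps between EtOH and P4, and COX7A2L in the P4 cultures (138 to 146) stands above all others.

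Complex V was the only complex with no gene called higher with P4 in any comparison. In complex IV the genes called higher against ethanol were only COX7A2L and NDUFA4L2. The 3 complex V genes for subunit c differed. Subunit c forms the ring that turns in the membrane, and ATP5MC1, ATP5MC2 and ATP5MC3 encode the same mature protein behind different import sequences. ATP5MC1 (chr17:48892765-48895871, plus strand) was at 39, 35.4 and 35.3 CPM in control cultures, at 39.3 and 29.8 CPM with Nap, at 24.9, 23.6 and 24.6 CPM with ethanol and at 13.7, 10.6 and 11.2 CPM with P4. The ethanol cultures were below all control and Nap cultures, and the P4 cultures below all ethanol cultures. ATP5MC1 fell by 1.06 ± 0.12 on the log2 scale with P4 against ethanol (0.479-fold, adjusted p = 1.2e-05), by 1.58 against Nap (adjusted p = 1.1e-05) and by 1.66 against control (adjusted p = 5.5e-09), and by 0.59 with ethanol against control (adjusted p = 0.00011). ATP5MC3 went from 63.5, 69.8 and 64.7 CPM in control cultures to 45.2, 47 and 50.2 CPM with ethanol and 33.5, 24.7 and 26.5 CPM with P4. Its groups did not overlap either, with a fall of 0.77 ± 0.11 against ethanol (adjusted p = 0.00011).

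ATP5MC2 was the most abundant of the 3 per length, at 28.3 ± 6.32 RPKM (CPM per kilobase of exon, SD, n = 3) in control cultures against 14 ± 0.817 for ATP5MC1 and 9.73 ± 0.492 for ATP5MC3. It was at 95.4, 101 and 105 CPM with P4 and 91.6, 98 and 90.5 CPM with ethanol, overlapping (log2 fold change 0.09 ± 0.068, adjusted p = 0.29). Against control, where 1 culture reached 142 CPM, its log2 fold change was -0.2 (adjusted p = 0.19). The annotation holds 7 pseudogenes named after ATP5MC1, and reads that fit both a gene and such a copy were not counted.

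ATP5IF1, the inhibitor that binds the F1 head and blocks ATP hydrolysis, was at 78.4, 89.5 and 74.4 CPM in control cultures, at 78.5 and 76.3 CPM with Nap, at 50.2, 60.1 and 54.7 CPM with ethanol and at 35.6, 27.2 and 31.7 CPM with P4. The order was the same as for ATP5MC1, with no overlap between ethanol and P4. ATP5IF1 fell by 0.83 ± 0.11 on the log2 scale with P4 against ethanol (adjusted p = 4.3e-05) and by 1.38 against control (adjusted p = 1.8e-08), and by 0.54 with ethanol against control (adjusted p = 0.00014). ATP5MF, subunit f of the membrane part (chr7:99448475-99466331, minus strand), was at 22.4, 17.2 and 17.5 CPM with P4 against 36.6, 40.5 and 37.9 CPM with ethanol. It fell by 1.04 ± 0.11 (adjusted p = 1.1e-05), and its read-through gene ATP5MF-PTCD1 had at most 3 counts in any library. The annotation holds 5 pseudogenes named after ATP5MF.

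The head of the ATP synthase was divided too. The subunits ATP5F1A (alpha) and ATP5F1B (beta), and ATP5F1C (gamma) of the central stalk, did not pass the test with P4 against ethanol. Their log2 fold changes were -0.12, -0.08 and 0.14. ATP5F1A gained a call under 4 of 16 alternatives, and ATP5F1B and ATP5F1C under 1 each. The stalk subunits ATP5F1D (delta) and ATP5F1E (epsilon) fell by 0.75 (adjusted p = 0.00073) and 0.44 (adjusted p = 0.00086). ATP5F1B was the most abundant member per length, at 304 ± 10.5 RPKM (SD, n = 3) in control cultures. With ethanol against control ATP5F1A, ATP5F1B and ATP5F1C fell by 0.41, 0.35 and 0.4 (adjusted p = 0.00033, 0.0016 and 0.00039). ATP5F1D did not, with a log2 fold change of 0.31 (adjusted p = 0.082). Of the side stalk, ATP5PF, ATP5PD and ATP5PB fell by 0.35, 0.23 and 0.22 with P4 against ethanol, and ATP5PO had -0.1 (adjusted p = 0.42). ATP5MGL, a little studied copy of subunit g, had at most 18 counts in any library and was not tested in this comparison.

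Other genes of the pathway were counted from fixed lists. The 13 subunits that mitochondrial DNA encodes took the opposite course with ethanol, 8 of 13 being called higher than control and 0 lower (median log2 fold change 0.84, where 11.9% of all genes were called higher), and with P4 against ethanol 9 of 13 were called lower and 0 higher (median -0.75, where 26.5% of all genes were called lower). With P4 against control 5 were lower and 4 higher (median -0.19), and against Nap 4 were lower and 4 higher (median 0.0). MT-ND4, of complex I, was higher with P4 than in control (log2 fold change 0.92, adjusted p = 0.00076), and MT-CYB fell by 0.8 (adjusted p = 1.4e-05). MT-CYB, the one mitochondrially encoded subunit of complex III, was at 258, 389 and 392 CPM with ethanol, at 98.5, 101 and 87.7 CPM with P4 and at 144, 197 and 150 CPM in control cultures. Normalization factors computed without the mitochondrial genes left the members' median at -0.19 with P4 against ethanol and at -0.32 with ethanol against control.

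Assembly factors outside the member list were mixed with P4 against ethanol. Of 24 genes of complex IV assembly, 4 were higher and 7 lower, where 26.6% of all genes were higher and 26.5% lower, so the count of lower genes is near the background. COX16 fell by 1.2 on the log2 scale (adjusted p = 0.0022) and COA3 by 0.92 (adjusted p = 0.00011), assembly factors of the mitochondrially encoded core, while LRPPRC, which stabilises mitochondrial mRNA, rose by 0.57 (adjusted p = 7.4e-06). Of 10 further complex I factors 1 was higher (ECSIT, by 0.65) and 2 lower, of 4 complex II factors 1 was higher (SDHAF4, by 0.96, with a log2 fold change of 0.34 and adjusted p = 0.1 against control) and 1 lower, of 6 complex III factors 0 and 3, and of 3 tested complex V factors 0 and 0. Of the 3 supercomplex factors in the list, which does not hold the member COX7A2L, 0 were higher and 1 was lower (STMP1, by 0.44). Among 14 genes of coenzyme Q synthesis and cytochrome c, 5 were higher and 5 lower, with COQ5 and COQ10B rising by 0.82 and 0.96, PDSS1 falling by 0.84 and cytochrome c (CYCS) rising by 0.26 (adjusted p = 0.0033). Against control CYCS had a log2 fold change of 0.01 (adjusted p = 0.96), having been lower with ethanol (-0.24, adjusted p = 0.026).

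The transcription regulators of the pathway held the most calls in the higher direction of the 9 lists in this comparison, 6 of 12 tested against 1 lower (median log2 fold change 0.26), with a background of 26.6% higher. PPARGC1A, the coactivator known for driving mitochondrial biogenesis, was at 49.7, 54.8 and 53.3 CPM with P4, at 16.7, 13.9 and 15.7 CPM with ethanol, and at 16.9, 12.4 and 14.4 CPM in control cultures. P4 cultures were above all others, with a rise of 1.77 ± 0.095 on the log2 scale (adjusted p = 3.9e-08). GABPA and GABPB1, the subunits of the ETS factor NRF2/GABP, rose by 0.52 and 0.62 (adjusted p = 0.00037 and 0.00012), and YY1 rose by 0.27 (adjusted p = 0.0026). GABPA did not pass against Nap (0.21, adjusted p = 0.12) nor YY1 against control (0.2, adjusted p = 0.081). NRF1 and TFAM did not pass against ethanol, with log2 fold changes of -0.05 (adjusted p = 0.69) and -0.13 (adjusted p = 0.1). TFAM was lower with P4 against control (-0.38, adjusted p = 0.0032) and against Nap (-0.37, adjusted p = 0.0043). NRF1 passed against neither (0.11, adjusted p = 0.44, and 0.16, adjusted p = 0.33). TFB1M, a mitochondrial rRNA methyltransferase, fell by 0.4 (adjusted p = 0.018).

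**Figure D5:**
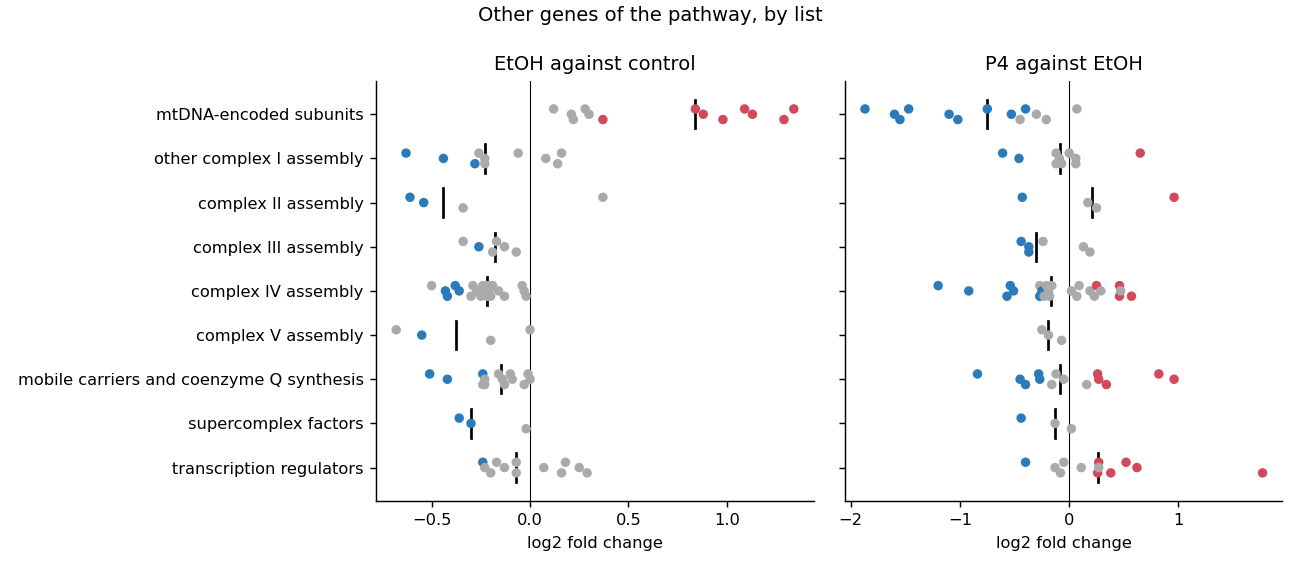
Log2 fold changes of the genes in 9 lists of the wider pathway (points, red where called higher, blue where called lower, grey otherwise) with the median of each list as a vertical bar, for EtOH against control and P4 against EtOH on separate scales. The mtDNA-encoded subunits lie above 0 in the first panel (median 0.84) and, but for 1 gene at 0.07, below 0 in the second (median -0.75).

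Respiratory chain genes are short. The tested members had a median exon length of 2475 bases against 4420 over all genes tested, with a median GC content of 47.5% against 47.4%. Genes outside the list that lay within the members' quartiles of length and GC content (2231 genes) had a median log2 fold change of -0.04 with P4 against ethanol, 25.9% lower and 23.4% higher. With ethanol against control such genes (2272) had a median of -0.12, 18.4% lower and 5.68% higher, beside the 63% and 0% of the members. Pseudogenes named after a member were annotated for 47 of the 100 members, and 27 members share exon bases with another gene on the same strand. Exon bases are shared with an opposite-strand gene for 40 members, among them 49.1% of those of NDUFS7. The strand setting of the counting is not given.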

How the data were processed

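Libraries were prepared from total RNA with a stranded kit and sequenced as single-end 75 base reads. The authors trimmed reads with Cutadapt, used Subread for alignment (unique alignments only), and deposited raw featureCounts counts for the genes of GENCODE release 31. Versions and the strand setting are not given in the sources used here.

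Counts were tested with edgeR 4.0.16 in R 4.3.3 (TMM, filterByExpr with a minimum count of 10, robust quasi-likelihood fits of the 2 groups compared, Benjamini-Hochberg adjustment over all genes tested, called at an adjusted p under 0.05). CPM uses TMM-scaled library sizes and RPKM the exon union of GENCODE 29 (GRCh38), where 58587 of 60662 genes were found. An exon union longer than the transcript in use lowers an RPKM. The scripts were tested on simulated data. Complexes and lists are described by counts and medians, with no test over a list. Named with values were the core subunits, the isoform sets and, in each complex, the 2 tested members at either end of the log2 fold changes of P4 against ethanol. Genes of the wider pathway, ATP5F1D, ATP5F1E and a few further members were named after their values were seen. The values of 1 member are not reported here. The members and lists were chosen with earlier results of these data known.

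Deviations of same-numbered cultures from their group means correlated at -0.043 to 0.042 over 15660 genes for P4 and ethanol, at -0.086 to -0.047 for P4 and control, at -0.011 to 0.07 for ethanol and control, and at 0.247 and 0.319 for the 2 pairs of Nap and control. Pairing was taken to need 3 pairs above 0.1, so fits carry no block. Comparisons with Nap hold only 2 pairs and could not meet this rule, so it does not decide pairing for them. Their counts with the block are given below. Alternatives were DESeq2 1.42.0, RLE and upper-quartile normalization, TMM without mitochondrial genes, other filters, all 4 groups in the fit, the replicate block, offsets for length and GC content, and each culture left out. Nap as the reference for ethanol was added after seeing the data. Figures were drawn with matplotlib 3.10.9.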

Additional observations from a re-analysis of the deposited data

Results flagged for a closer look

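Only the members named by rule were screened in the 6 libraries without a group, and only for values above every control culture. Members below every control culture in the columns named PSAT1_P4, such as ATP5MC1 and ATP5IF1, could not be flagged. No share over all genes was computed. Among the members screened, COX7A2L, NDUFS4, NDUFS7 and NDUFAF2 stood above every control culture in all 3 libraries of the columns named PSAT1_P4, whose titles name PSAT1 alone. The lowest of these 3 libraries was at 146 CPM for COX7A2L, where the highest control culture was at 94.9 CPM. For NDUFS4 the lowest was at 30.8 CPM and the highest control culture at 28.4 CPM, for NDUFS7 they were 13.4 and 12.3 CPM, and for NDUFAF2 15.4 and 14.8 CPM. In the P4 cultures COX7A2L was at 138 to 146 CPM. No test was made, since the condition of these libraries is not settled.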

How the results depend on the processing

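Single named members were recomputed with P4 against ethanol. Under other settings 412 values kept their state, called or not called, 13 lost a call and 15 gained one, with 0 reversed. With each culture left out, 243 values kept their state, 13 lost a call and 8 gained one. Upper-quartile normalization shifted the median of all genes to -0.101 with P4 against ethanol, and moved the medians of complexes I, II, III and V to -0.33, -0.2, -0.2 and -0.35 and that of the assembly factors to 0. Members higher with P4 against control then numbered 1. Offsets for length and GC content gave -0.08 for complex I and 0.02 for the assembly factors, with or without the replicate block. The cause was not tested. Leaving out each culture gave 23 to 46 lower and 8 to 13 higher members with P4 against ethanol, 52 to 63 and 1 to 3 against control, 44 to 63 and 2 to 4 against Nap, and 38 to 63 and 0 for ethanol against control. Where 1 Nap culture was left, it was assumed to vary like the other group. The medians ranged from -0.26 to -0.19 (complex I), 0.06 to 0.13 (assembly factors), -0.15 to -0.07 (II), -0.15 to -0.04 (III and IV) and -0.37 to -0.18 (V).

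Same-numbered cultures were not treated as pairs, although those of Nap and control correlated at 0.247 and 0.319. With the replicate block 39 members were lower and 9 higher with P4 against ethanol, 60 and 3 against control, 48 and 3 against Nap, 62 and 0 for ethanol against control and 0 for Nap against control. Depth limits the tissue isoforms of complex IV, at 4 counts or fewer, and the ethanol culture with 4999521 counts is the shallowest.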

Other observations

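The 6 libraries with PSAT1 fell into 2 sets by column name for most complexes. In the 3 libraries of the columns named PSAT1_P4, the median log2 ratio of complex V genes to the control mean was -0.601, -0.736 and -0.704, and in the columns named PSAT1 it was -0.033, -0.233 and -0.128. For complex I the values were -0.349, -0.401 and -0.482 and then -0.031, -0.162 and -0.015. ATP5MC1 was at 12.1, 11 and 11.2 CPM in the former columns and at 35.9, 29.6 and 33.8 CPM in the latter. ATP5IF1 was at 35.3, 27.4 and 28.6 CPM and at 79.6, 73.9 and 78.7 CPM. COX7A2L was at 146, 153 and 147 CPM and at 87.4, 77.3 and 84 CPM. The complex I assembly factors did not separate, with medians of 0.004, -0.012 and -0.046 and of 0.051, -0.219 and 0.027.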
